A study of Homo sapiens with 8 samples.

Results

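The comparison described here is that of BT474m1 cells treated with the BET bromodomain inhibitor JQ1 against the same cells treated with the vehicle DMSO. Its members are the genes with a normalised value of 100 or more in either of the 2 libraries, which are 10681 of the 20531 genes listed (52.0%). The study asked how HER2-positive breast cancer cells adapt to drugs, and measured poly(A) RNA in BT474m1 and SKBR-3 cells under 4 treatments: the vehicle, lapatinib at 300 nM, JQ1 at 300 nM, and the combination of the drugs. Each of these 8 groups held 1 library. Per the labels all cells grew in RPMI medium with fetal bovine serum and were treated for 48 h. The methods text names a shorter treatment in general, and another passage on SKBR-3 RNA names the same time as the labels. BT474m1 is a HER2-positive breast carcinoma line, here without any engineered change named in the labels, so that the JQ1 and DMSO libraries share line, medium and time and differ in the drug. Because each side is 1 library, there was no replicate check of any difference, no test was run, and each 95% interval beside a log2 fold change reflects the counting of reads alone.

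BET proteins, such as BRD2, BRD3 and the testis protein BRDT, carry bromodomains, which hold acetylated lysines on histones, and they gather at active promoters and enhancers. Transcription there also needs the kinase complex P-TEFb, made of CDK9 and a cyclin T, which releases RNA polymerase II from its pause near the start of a gene. JQ1 fills the acetyl-lysine pocket of these bromodomains and displaces the proteins from chromatin. In breast cancer cells such inhibitors are known for lowering genes that depend on large enhancers.

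The labelled cell type was checked first. Each of 10 luminal breast markers was present, with values from 840.2 to 95962 in the DMSO library and from 190 to 94678 in the JQ1 library. Of 17 defining markers of leukocytes, endothelium, fibroblasts, muscle, red cells, melanocytes and liver, 15 stayed under 100 in both libraries, with a highest value of 36.3 with DMSO and 14.5 with JQ1. In the DMSO library 4 of the 17 were at 0, among them HBB, MLANA and PECAM1, and in the JQ1 library 5 were, among them ACTA2, CD3E, DES and HBB. The summed value of the 17 was 1469 with DMSO and 439.6 with JQ1, and most of it came from COL1A1, a chain of type I collagen, which had 1253 and 394. VWF, the endothelial von Willebrand factor, had 153 with DMSO and 11.1 with JQ1. The part of any other cell type in the results was not tested. The depth was 34112356 reads on genes with DMSO and 33876420 with JQ1, and 1 read was worth 0.471 and 0.483 units.

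With JQ1, 342 of the 10681 genes (3.2%) were at least 2-fold higher and 772 (7.23%) at least 2-fold lower, and these are called raised and lowered below. Lowered genes were 69.3% of the 1114 changed ones. At 4-fold or more the counts were 46 raised and 180 lowered, and at 8-fold or more they were 9 and 61. The median log2 fold change over the genes compared was -0.04, with an interquartile range from -0.37 to 0.26. Of the changed genes, 226 raised and 445 lowered ones had values of 100 or more in both libraries, out of 9924 genes that did so. A gene that entered through 1 library with under 50 in the other had to differ at least 2-fold, which holds for 48 raised and 157 lowered genes. Within 2 units of the limit, 39 genes lay just inside it and 21 just outside. Of the 2671 genes with the lowest mean values 6.25% were raised and 16.3% lowered, against 1.84% and 1.84% of the 2670 genes with the highest.

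**Figure D1:**
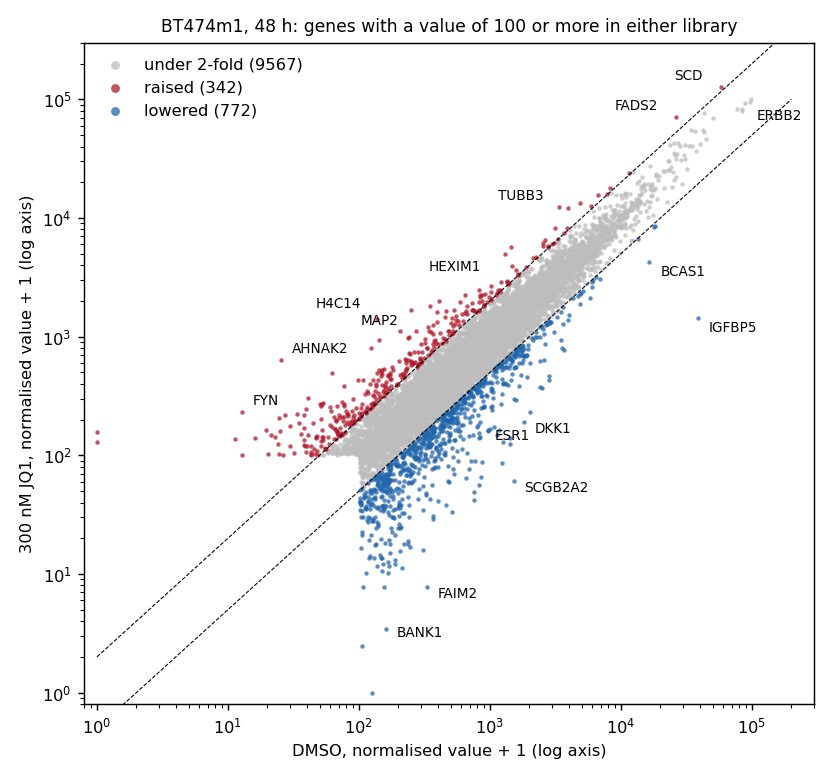
Normalised value + 1 of each gene with DMSO (horizontal, log axis) and with 300 nM JQ1 (vertical, log axis), 1 library each, for the 10681 genes compared. Dashed lines mark a 2-fold difference, red points are the 342 raised genes and blue points the 772 lowered ones. Blue points reach farther from the dashed lines than red ones at high values, as IGFBP5 does.

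The direct targets of the drug and the P-TEFb complex were looked at first. BRD2 had values of 4401 with DMSO and 8556 with JQ1, a log2 fold change of 0.96. BRD3 had 2475 and 2389, a log2 fold change of -0.05 (interval -0.11 to 0.01). BRDT, the testis member, was listed at 0 in both libraries. Neither BRD2 nor BRD3 was thus raised or lowered 2-fold. Of 20 genes of P-TEFb and its control 1 was raised and 1 lowered, with a median of 0.04. The raised one was HEXIM1, the protein that holds P-TEFb inactive in a ribonucleoprotein with the 7SK RNA, which went from 1204 to 2909.7 (log2 fold change 1.27, interval 1.21 to 1.34). The lowered one was AFF3, a scaffold of the super elongation complex, which fell from 349 to 151 (log2 fold change -1.20, interval -1.40 to -1.01). CDK9 itself differed by 0.12 on the log2 scale. Among 30 subunits of Mediator, the complex that links enhancers to the polymerase, MED24 was the only one past 2-fold, at 13383 with DMSO and 6602 with JQ1 (log2 fold change -1.02), and it too stayed under 2-fold with scaling by the median of ratios (-0.99).

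Replication-dependent histone genes were the list that stood highest. These genes make the core histones H2A, H2B, H3 and H4 and the linker H1 that package newly made DNA. They lie in clusters of short genes without introns, and their transcripts normally end in a stem-loop in place of a poly(A) tail. Since poly(A) RNA was sequenced, the values cover copies with a poly(A) tail, and total histone RNA was not measured. Of 66 such genes listed, 14 had a value of 100 or more in either library, and of these 12 were raised and none was lowered, with a median log2 fold change of 2.34 beside -0.04 over all genes compared. The other 52 were not compared, and 5 of the 12 (H2AC11, H2BC8, H2AC8, H2BC4 and H2BC11) passed the limit through the JQ1 library alone, 3 of them with under 50 in the DMSO library, so that they had to be called. Of the 9 with 100 or more in both libraries 7 were raised. H4C14, an H4 gene, had 136 with DMSO and 1401 with JQ1 (log2 fold change 3.36, interval 3.19 to 3.55). H2AC11 had 15.1 and 139 (log2 fold change 3.12, interval 2.67 to 3.78), and H2BC8 had 23.6 and 207 (log2 fold change 3.08, interval 2.71 to 3.59). H2AC8 went from 32.5 to 221, a log2 fold change of 2.73, and H2AC18 from 123.4 to 804, a log2 fold change of 2.69. The log2 fold changes of the 12 raised genes spanned 1.10 (H2BC11) to 3.36 (H4C14). The remaining ones were H2BC12, with 1518 and 1876 (log2 fold change 0.30), and H3C6, with 120.2 and 101 (log2 fold change -0.24). H2BC11, H2BC12, H3C6 and, in what follows, H2BC21, H1-2, H2BC4, H2AC6 and H2BC5 were named after their values were seen. Histone genes are near copies of each other, and only 8 of the 14 had values that were whole numbers of reads in the 8 libraries, so that reads may have been divided between single genes.

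The histone promoters are shown because 9 of the 12 raised histone genes stood in 2 runs of neighbours. In the order of RefSeq genes, passing over genes that were not compared, H1-2, H2BC4, H2AC6, H2BC5, H2BC8 and H2AC8 stood next to each other on chromosome 6, and H4C14, H2AC18 and H2BC21 on chromosome 1, in a run with PPIAL4C. Histone genes lie in clusters, and H2BC4, H2BC8 and H2AC8 passed the limit through the JQ1 library alone. The runs therefore describe where raised genes lie and bear on nothing else. The 120 bases before the RefSeq start of the 6 histone genes raised most are given 5′ to 3′ (RefSeq, GRCh38.p14). Capitals mark TATAAA on the printed strand and CCAAT on either strand, where ATTGG is CCAAT on the other strand.
H4C14 (chr1:149832537-149832656, + strand): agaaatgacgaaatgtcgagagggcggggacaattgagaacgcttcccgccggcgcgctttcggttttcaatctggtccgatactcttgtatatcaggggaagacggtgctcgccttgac
H2AC11 (chr6:27132923-27133042, + strand): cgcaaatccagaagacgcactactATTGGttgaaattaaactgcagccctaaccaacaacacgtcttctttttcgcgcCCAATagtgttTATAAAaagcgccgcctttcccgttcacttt
H2BC8 (chr6:26216689-26216808, - strand): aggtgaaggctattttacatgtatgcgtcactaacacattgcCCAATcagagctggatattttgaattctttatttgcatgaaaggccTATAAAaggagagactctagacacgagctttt
H2AC8 (chr6:26216801-26216920, + strand): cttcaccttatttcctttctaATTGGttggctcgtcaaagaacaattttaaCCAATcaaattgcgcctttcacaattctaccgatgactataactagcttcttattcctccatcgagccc
H2AC18 (chr1:149842751-149842870, - strand): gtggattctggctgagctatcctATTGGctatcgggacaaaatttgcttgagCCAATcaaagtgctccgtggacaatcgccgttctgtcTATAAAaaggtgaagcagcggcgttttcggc
H2BC21 (chr1:149886683-149886802, - strand): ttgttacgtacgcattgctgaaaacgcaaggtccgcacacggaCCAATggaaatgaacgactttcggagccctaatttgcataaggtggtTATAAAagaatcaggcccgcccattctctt

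TATAAA began between 32 and 30 bases before the start in 4 of these 6 windows. Over the 14 histone genes compared, 8 (57.1%) held TATAAA between 40 and 20 bases before the start, against 2.55% of 27305 RefSeq promoters. CCAAT on either strand was found in the 300 bases around the start in 12 of the 14 (85.7%), against 35.7% of the RefSeq promoters. H2BC8 and H2AC8 are read in opposite directions from starts 233 bases apart, so that their windows meet, and both genes were raised. A match to these letters is a description only, and the 2 histone genes that were not raised, H2BC12 and H3C6, held CCAAT as well. H2BC12 also held TATAAA, while H4C14, which rose most of the 14, held neither. Among the raised genes with a known exon count 8.88% had a single exon, and 5.52% did without the histone genes, against 1.17% of the lowered genes and 2.51% of all genes compared.

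The histone variants that cells make outside S phase moved less. Of 11 replication-independent histone genes 2 were raised, 1 was lowered and the median was 0.40. H3-3B, which encodes the histone H3.3, rose from 3862 to 8198 (log2 fold change 1.09, interval 1.05 to 1.12), and H3-5 rose from 384 to 887 (log2 fold change 1.20). MACROH2A2, a variant of H2A with a large macro domain, fell from 1741 to 602 (log2 fold change -1.53, interval -1.62 to -1.44). None of 11 genes that process histone transcripts was raised or lowered. SLBP, which binds the stem-loop, had 1561.5 with DMSO and 1825 with JQ1, a log2 fold change of 0.22.

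Many genes of proliferation were lowered. Of 37 mitosis genes none was raised, 21 were lowered and each had a log2 fold change below 0, with a median of -1.02. FOXM1, the transcription factor of the G2 to M transition, fell from 3087 to 1085 (log2 fold change -1.51), and PRC1, which bundles microtubules of the central spindle, fell from 1894 to 699 (log2 fold change -1.44). The kinesin KIF4A went from 1402 to 545 (log2 fold change -1.36), and ECT2, the exchange factor for cytokinesis, from 4856 to 1895 (log2 fold change -1.36). MKI67, the proliferation marker, fell from 2739.7 to 1275 (log2 fold change -1.10, interval -1.17 to -1.04). The smallest difference in the list was that of CDK1, the mitotic kinase, with 2644 and 2238 (log2 fold change -0.24), a gene named after its value was seen.

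DNA replication genes lay below 0 in 37 of 38 cases, but only 6 passed 2-fold and none was raised, with a median of -0.75. MCM5 and MCM2, subunits of the replicative helicase, fell from 1677 to 603 (log2 fold change -1.47) and from 2563 to 1051 (log2 fold change -1.28). UHRF1, which guides maintenance of DNA methylation, fell from 1036 to 404 (log2 fold change -1.36). In DNA repair 3 of 25 genes were lowered and none raised, with a median of -0.69. BRCA1 fell from 774 to 365 (log2 fold change -1.08) and FANCD2 from 1819 to 687 (log2 fold change -1.40).

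Of 18 G1 cyclins, kinases, their inhibitors and E2F factors 2 were raised and 3 lowered, 15 lay below 0, and the median was -0.55. Of the 17 with 100 or more in both libraries 2 were raised and 2 lowered. CDKN1A, which encodes the inhibitor p21, rose from 177 to 552 (log2 fold change 1.64, interval 1.47 to 1.81). CDKN2D, an inhibitor of CDK4 and CDK6, rose from 134 to 384 (log2 fold change 1.51, interval 1.32 to 1.72). E2F8 fell from 235 to 57.0 (log2 fold change -2.02) and E2F2 from 559 to 202 (log2 fold change -1.46). CCND1, cyclin D1, had 6358 and 3569, a log2 fold change of -0.83. CDKN2C, another inhibitor of CDK4 and CDK6, fell from 499 to 222 (log2 fold change -1.17). MYC fell from 462.5 to 37.2 (log2 fold change -3.60, interval -3.99 to -3.30), and MYCN, its relative, from 436 to 216 (log2 fold change -1.01, but -0.98 with a pseudocount of 10 or scaling by the median of ratios). MYC and E2F8 passed the limit through the DMSO library alone. The other 10 of 12 members of the MYC network compared stayed under 2-fold, among them MAX at 0.29 and the antagonists MXD1 at 0.99 and MXD4 at 0.54 on the log2 scale. Of 37 ribosome biogenesis genes 1 was lowered, with a median of -0.28, and of 78 cytosolic ribosomal protein genes none was raised or lowered, with a median of 0.09.

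**Figure D2:**
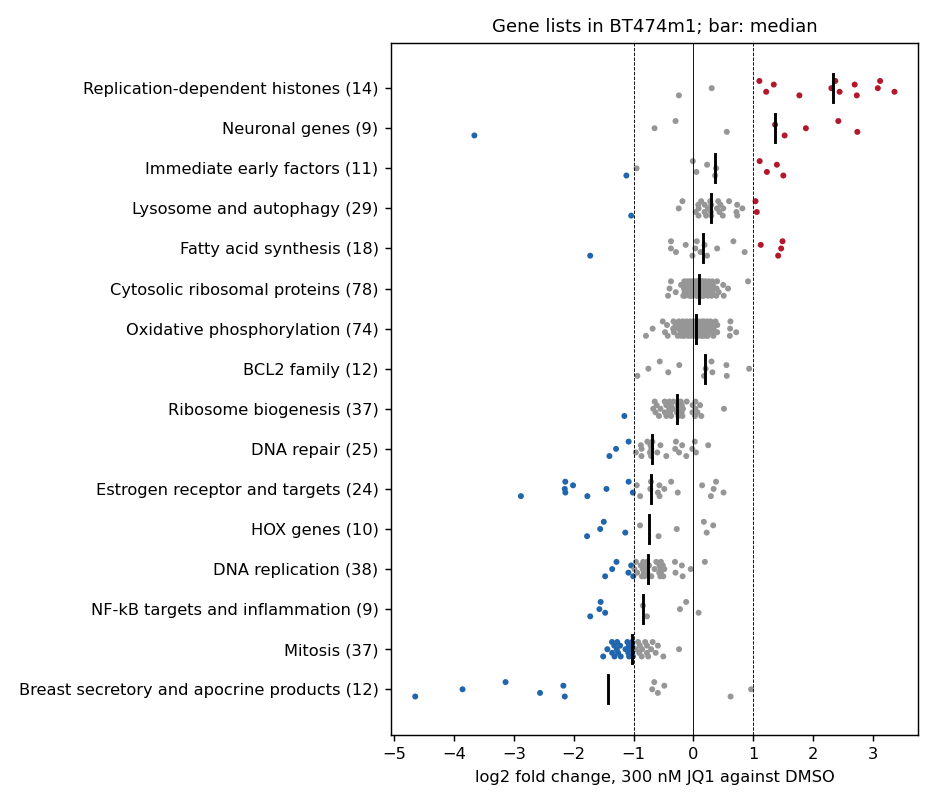
Log2 fold change of JQ1 against DMSO in BT474m1 (horizontal) for the members of 16 gene lists, with the number of members compared in parentheses. Each point is a gene, red at 2-fold or more higher and blue at 2-fold or more lower, and black bars are medians. The bar of the replication-dependent histones lies at 2.34, that of mitosis at -1.02 and that of the breast secretory and apocrine products at -1.42.

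Several genes known from neurons were raised. Of 30 listed, 9 were compared, of which 5 were raised and 1 lowered, with a median of 1.36. Of the raised ones SYP, ENO2 and SERPINI1 passed the limit through the JQ1 library alone, where they are high, so that the count and the median rest partly on how members were chosen. Of the 4 with 100 or more in both libraries 2 were raised. MAP2, a microtubule protein of dendrites, had 140.03 with DMSO and 939.6 with JQ1 (log2 fold change 2.74, interval 2.57 to 2.93). TUBB3, the neuronal beta-tubulin, had 3381.5 and 12434 (log2 fold change 1.88, interval 1.84 to 1.92), although tubulin genes share reads and none of its 8 values was whole. SYP, the synaptic vesicle protein synaptophysin, went from 33.9 to 186 (log2 fold change 2.42), ENO2, neuronal enolase, from 72.6 to 211 (log2 fold change 1.52), and SERPINI1, neuroserpin, from 50.4 to 131 (log2 fold change 1.36). Of the 9 genes 3 lay below 0. SYT1, the calcium sensor of synaptic vesicles, fell from 365 to 28.02 (log2 fold change -3.66, interval -4.12 to -3.32), STMN3 had 552 and 352 (log2 fold change -0.65), and DPYSL3 had 563 and 458 (log2 fold change -0.30). The microtubule protein gene MAPT stayed at 96.2 and 142, a log2 fold change of 0.56.

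Genes among the 20 raised most had few reads with DMSO in several cases. AHNAK2, a very large scaffold protein, had 24.5 with DMSO and 632 with JQ1 (log2 fold change 4.63, interval 4.29 to 5.12). FYN, a kinase of the SRC family, had 11.8 and 228.5 (log2 fold change 4.17, interval 3.70 to 4.92). NGFR, the p75 neurotrophin receptor, had 10.4 and 137 (log2 fold change 3.60, interval 3.10 to 4.42). These genes and the next pair, SH3GL2 and CADM2, entered through the JQ1 library alone. SH3GL2, endophilin A1 of synaptic endocytosis, rose from 18.4 to 164 (log2 fold change 3.09). CADM2, a cell adhesion molecule, rose from 61.3 to 488 (log2 fold change 2.97), and FSCN1, the actin bundling protein fascin, from 247 to 1672 (log2 fold change 2.76, interval 2.63 to 2.90). ZNHIT2 and PPIAL4C were listed at 0 with DMSO and at 157 and 129 with JQ1, and neither had whole reads in all libraries, so that no fold change is given for them.

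Of 10 mesenchymal genes compared 1 was raised, 4 were lowered and 7 lay below 0, with a median of -0.81, but 3 (LOX, FN1 and COL5A1) passed the limit through the DMSO library alone, and of the 6 with 100 or more in both libraries 2 were lowered. CDH2, N-cadherin, was the raised one, from 38.7 to 245 (log2 fold change 2.63), and passed the limit through the JQ1 library alone. LOX, which crosslinks collagen, fell from 306 to 33.3 (log2 fold change -3.16), TNC, the matrix protein tenascin C, from 842.5 to 142.5 (log2 fold change -2.56), and FN1, fibronectin, from 146 to 43.5 (log2 fold change -1.72). COL1A1 was the other lowered one. None of 24 epithelial genes was raised or lowered, and the cadherin CDH1 had 19414 and 22451, a log2 fold change of 0.21.

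Several genes of lipid synthesis were raised at high values. SCD, which puts the first double bond into saturated fatty acids, had 58336 with DMSO and 127178 with JQ1 (log2 fold change 1.12, interval 1.11 to 1.13). FADS2, a desaturase of polyunsaturated fatty acids, had 26466 and 70569.5 (log2 fold change 1.41), and SREBF1, which encodes the master factor of lipid synthesis, had 4852 and 13399 (log2 fold change 1.47). ELOVL7, an elongase, rose from 262 to 737 (log2 fold change 1.49), whereas the elongase ELOVL6 fell from 1324 to 400 (log2 fold change -1.72, interval -1.84 to -1.61). Over the 18 genes of fatty acid synthesis 4 were raised and 1 lowered, with a median of 0.15 that became -0.05 among the genes with whole reads in the 8 libraries. FASN, fatty acid synthase, was at 42713 and 77244, a log2 fold change of 0.85 that stayed under 2-fold, and was named after its value was seen. In sterol synthesis 2 of 24 genes were raised and the median was -0.04. TM7SF2, the sterol C14 reductase, rose from 3123.5 to 8286.5 (log2 fold change 1.41) and LSS, lanosterol synthase, from 2751.5 to 5655 (log2 fold change 1.04), while HMGCS1, early in the same path, had 12075 and 6556 (log2 fold change -0.88).

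Lysosomal genes lay mostly above 0 with small differences. Of 29 compared, 26 had a log2 fold change above 0 and 2 were raised, with a median of 0.30. NEU1, lysosomal sialidase, rose from 1197 to 2493 (log2 fold change 1.06), and NPC2, the carrier of cholesterol in the lysosome, from 1624 to 3333 (log2 fold change 1.04). CTSZ, a cathepsin, fell from 920.3 to 447 (log2 fold change -1.04). PSAP, the precursor of the saposins and among the raised genes with the highest values, had 11527 and 24024 (log2 fold change 1.06). FTL, the ferritin light chain, had 8213 and 18053 (log2 fold change 1.14), and the long noncoding RNA NEAT1, which builds paraspeckles, had 3968 and 12156 (log2 fold change 1.61).

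Immediate early factors were divided. Of 11 compared, 4 were raised and 1 lowered. JUN, a subunit of the factor AP-1, rose from 844 to 2220.3 (log2 fold change 1.39, interval 1.32 to 1.47) and JUND from 2123 to 4572.5 (log2 fold change 1.11). IER5, another immediate early gene, rose from 165 to 470.5. NR4A1, an orphan nuclear receptor, fell from 490.3 to 225 (log2 fold change -1.12). KLF2, a Krueppel-like factor, rose from 529 to 1680.2 (log2 fold change 1.66).

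The estrogen receptor and its targets were among the lowered lists. Of 24 compared, 9 were lowered and none raised, with a median of -0.71, and of the 22 with 100 or more in both libraries 7 were lowered. ESR1, the receptor, fell from 840.2 to 189.9 (log2 fold change -2.14, interval -2.31 to -1.99), and PGR, the progesterone receptor, from 858 to 251 (log2 fold change -1.77, interval -1.92 to -1.63). The targets GREB1 and TFF1 fell from 1676 to 379.7 (log2 fold change -2.14) and from 1207 to 271.5 (log2 fold change -2.15). SUSD3 fell from 145 to 18.8 (log2 fold change -2.88), and passed the limit through the DMSO library alone. The remaining 15 stayed under 2-fold, among them CTSD, cathepsin D, with 4356 and 5331 (log2 fold change 0.29). FOXA1, which opens chromatin for the receptor, had 12907 and 13200.0 (log2 fold change 0.03), and GATA3, a luminal factor, had 2412 and 1938 (log2 fold change -0.32). Among 26 luminal transcription factors 4 were lowered and 1 raised. EHF, an epithelial ETS factor, fell from 2847 to 432 (log2 fold change -2.72, interval -2.82 to -2.62), while ELF3, of the same family, rose from 2549 to 5781 (log2 fold change 1.18, interval 1.14 to 1.23).

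Secreted products of breast epithelium had the lowest median of the lists with more than 2 members compared. Of 12 compared, 6 were lowered and none raised, with a median of -1.42, but 4 of the lowered ones passed the limit through the DMSO library alone, and of the 8 with 100 or more in both libraries 2 were lowered. SCGB2A2, mammaglobin A, fell from 1512 to 59.4 (log2 fold change -4.65, interval -4.94 to -4.41). PIP, the prolactin-induced protein, fell from 167 to 10.6 (log2 fold change -3.86), SCGB1D2, lipophilin B, from 118 to 12.6 (log2 fold change -3.14), and LTF, lactoferrin, from 960.4 to 162 (log2 fold change -2.56). TFF1 and BPIFB1 were the other lowered ones. AZGP1, MUC1, MUCL1 and TFF3 lay between -0.69 and -0.49 on the log2 scale, and CLU, clusterin, and S100P, a calcium-binding protein, were at 0.62 and 0.96.

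IGFBP5, which binds insulin-like growth factors, fell from 38861 with DMSO to 1438 with JQ1 (log2 fold change -4.76, interval -4.81 to -4.70). BANK1, an adaptor known from B cells, fell from 159 to 2.42 (log2 fold change -5.55, interval -7.68 to -4.81), and FAIM2, an inhibitor of death receptor signals, from 328 to 6.76 (log2 fold change -5.41, interval -6.48 to -4.84). BRINP3 had 104 with DMSO and 3 reads with JQ1, a log2 ratio of -5.42 with an interval of -8.45 to -4.60. These 3 were under 10 with JQ1. They, NFATC1, SCGN and ABCC2 passed the limit through the DMSO library alone. NFATC1, a calcineurin-dependent factor, fell from 154 to 6.76 (log2 fold change -4.32), SCGN, a calcium sensor, from 753 to 48.3 (log2 fold change -3.94), and ABCC2, an export pump for conjugated compounds, from 1227 to 85.5 (log2 fold change -3.83). DKK1, a secreted inhibitor of WNT signals, fell from 1811 to 190.3 (log2 fold change -3.24, interval -3.40 to -3.10). TBC1D3C was listed at 0 with JQ1 and at 124 with DMSO. It belongs to a family of near copies, so that no fold change is given.

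Lowered genes with high values showed that changes were not limited to rare transcripts. BCAS1, a gene amplified in breast cancer, fell from 16486 to 4277 (log2 fold change -1.95, interval -1.98 to -1.91). XBP1, a factor of the secretory path, fell from 17776.5 to 8399 (log2 fold change -1.08), MLLT6 from 18354 to 8547 (log2 fold change -1.10) and HDGF, a growth factor, from 5801 to 2124 (log2 fold change -1.45). TOP2A, the topoisomerase of dividing cells, fell from 5974 to 2897 (log2 fold change -1.04). AURKA, a mitotic kinase, fell from 6030.2 to 2598 (log2 fold change -1.21).

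ERBB2, the amplified receptor that defines the line, had 95962 with DMSO and 94678 with JQ1, a log2 fold change of -0.02. ERBB3, its partner, had 5557 and 4112 (log2 fold change -0.43, interval -0.48 to -0.39), and EGFR had 1632.5 and 1943 (log2 fold change 0.25). None of the 5 ERBB receptors and ligands compared was raised or lowered. Of 14 genes of the amplicon around ERBB2 9 stayed under 2-fold, 2 were raised and 3 were lowered, with a median of -0.08 that became 0.02 with no filter on low values. Among the 12 with 100 or more in both libraries 1 was lowered, since PPP1R1B and PNMT passed the limit through the DMSO library alone. MIEN1 rose from 5917 to 12652 (log2 fold change 1.10), GSDMB, a gasdermin, rose from 486 to 1038 (log2 fold change 1.09), PPP1R1B, which encodes DARPP-32, fell from 206 to 23.2 (log2 fold change -3.09), and PNMT, the adrenaline-making enzyme, fell from 358 to 55.6 (log2 fold change -2.67). Of 20 other receptor tyrosine kinases 4 were raised and 3 lowered, and of the 18 with 100 or more in both libraries 3 were raised and 2 lowered, since EPHA7 and TYRO3 passed the limit through 1 library alone. FGFR3 rose from 416 to 1062 (log2 fold change 1.35) and EPHA7 from 52.3 to 141 (log2 fold change 1.41), while EPHB6 fell from 509 to 114 (log2 fold change -2.14) and TYRO3 from 333 to 86.5 (log2 fold change -1.93). SRC, the relative of FYN, fell from 379 to 79.2 (log2 fold change -2.24, interval -2.51 to -2.01), and passed the limit through the DMSO library alone. Of 15 nonreceptor tyrosine kinases compared 1 was raised and 2 were lowered. Among the 13 with 100 or more in both libraries none was raised and 1 was lowered.

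Some inflammatory and interferon genes were lowered, and most of the lowered ones in these lists passed the limit through the DMSO library alone. Of all genes compared 7.23% were lowered, and of those with the lowest mean values 16.3%. Among 9 NF-kB genes 4 were lowered and none raised, with a median of -0.84, and among the 6 with 100 or more in both libraries 1 was lowered. RELB, a subunit of NF-kB, fell from 173 to 51.7 (log2 fold change -1.72), NFKB2 from 402 to 144 (log2 fold change -1.47), and TNFAIP3, the feedback inhibitor A20, from 128 to 42.5 (log2 fold change -1.57). RELA, the main activating subunit, had 2156 and 1982 (log2 fold change -0.12). Of 13 interferon-stimulated genes 4 were lowered and 2 raised, with a median of -0.54 that became 0.08 among the genes with whole reads in the 8 libraries. Of the 7 with 100 or more in both libraries 1 was lowered and none raised. HERC6 fell from 188 to 11.1 (log2 fold change -3.96) and OAS3, a sensor of double-stranded RNA, from 218 to 16.9 (log2 fold change -3.61), while IRF7 rose from 93.8 to 248 (log2 fold change 1.39). The neighbours PARP9, DTX3L and PARP14 were lowered together, at 446 and 101, at 686 and 143, and at 697 and 76.3, and were named after their values were seen.

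The HOX genes past 2-fold were all of the HOXB cluster. HOXB6, HOXB7, HOXB9 and HOXB13, which pattern the body axis in development, were each lowered and stood next to each other among the genes compared. HOXB7 fell from 3635 to 1287 and HOXB9 from 232 to 67.1 (log2 fold change -1.78, interval -2.07 to -1.52). HOXB6 and HOXB9 passed the limit through the DMSO library alone, and of the 8 HOX genes with 100 or more in both libraries 2 were lowered. The 6 HOXC genes compared lay between -0.89 (HOXC4) and 0.33 (HOXC13) on the log2 scale, so that none was lowered 2-fold. Of 26 ABC transporters 7 were raised and 2 lowered. ABCA5 rose from 235 to 976 (log2 fold change 2.05) and ABCA7 from 299 to 864 (log2 fold change 1.53), while ABCC2 and ABCA12, a lipid carrier, were the lowered ones and passed the limit through the DMSO library alone. Of the 23 with 100 or more in both libraries none was lowered.

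BCL2 family genes, which set the threshold for cell death, showed no 2-fold change in any of the 12 compared, with a median of 0.19 that became -0.02 with no filter on low values. MCL1, a survival protein, had 6850.5 and 10080.2 (log2 fold change 0.56, interval 0.53 to 0.59), and the death-promoting BBC3 had 175 and 334 (log2 fold change 0.93, interval 0.75 to 1.12). BCL2 itself stayed under 100, with 47.1 and 12.1. None of 74 oxidative phosphorylation genes was raised or lowered, with a median of 0.03. Of 372 zinc finger genes 6 were raised and 17 lowered, or 3 and 8 of the 337 with 100 or more in both libraries, with a median of 0.04 that became -0.06 among the genes with whole reads.

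The nearest repeat of JQ1 in this line is its addition to lapatinib, which blocks the kinases of EGFR and HER2, since lapatinib and JQ1 against lapatinib uses none of the same libraries. Over the same 10681 genes it raised 347 (3.25%) and lowered 839 (7.86%). Raised in both were 186 genes, 54.4% of those raised by JQ1 alone and 53.6% of those raised by its addition. Lowered in both were 543 genes, 70.3% of the one list and 64.7% of the other. Of the shared genes 17 raised and 73 lowered ones were under 100 in both libraries with lapatinib. Of the genes raised by JQ1 alone 95.3% were above 0 in the other comparison, and of those lowered 97.3% were below 0. Across the genes the log2 fold changes had a Pearson r of 0.81 and a Spearman rho of 0.78 (n = 10681 genes). Genes are not independent replicates, and the 4 libraries share the line, the kit and the scaling.

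**Figure D3:**
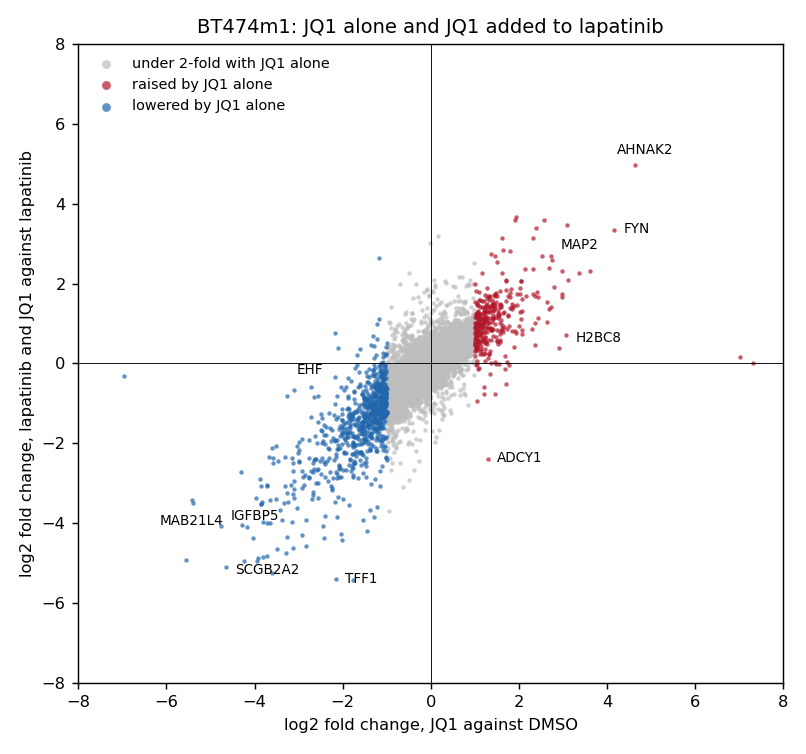
Log2 fold change of JQ1 against DMSO (horizontal) and of lapatinib and JQ1 against lapatinib (vertical) in BT474m1 for the 10681 genes compared, 1 library a group. Red and blue points are genes raised and lowered at least 2-fold by JQ1 alone. Most lie in the quadrants of equal sign, and 186 of the 342 red and 543 of the 772 blue ones are past 2-fold in both.

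Several of the genes that changed most recurred in that second comparison. AHNAK2 had 16.3 with lapatinib and 543 when JQ1 was added (log2 fold change 4.98), MAP2 from 117 to 761 (log2 fold change 2.69) and HEXIM1 from 1046 to 2931 (log2 fold change 1.49). IGFBP5 went from 136501 to 8159.8 (log2 fold change -4.06), SCGB2A2 from 1208 to 34.4 (log2 fold change -5.09) and DKK1 from 2170.5 to 194 (log2 fold change -3.48). The counts of several lists were not alike in the pair of comparisons. Mitosis genes had 21 of 37 lowered by JQ1 alone and 4 by its addition, with medians of -1.02 and -0.24, and MKI67 was at 54.8 with lapatinib and 54.2 with both drugs. Estrogen receptor targets had 9 of 24 lowered by JQ1 alone and 16 by its addition, with medians of -0.71 and -1.83. TFF1 was at 8799 with lapatinib and 206 with both drugs, a log2 fold change of -5.41 beside -2.15 with JQ1 alone. Replication-dependent histone genes had 12 of 14 raised by JQ1 alone and 6 by its addition, where 1 was lowered, with medians of 2.34 and 0.79. H2BC8 had 47.0 with lapatinib and 78.1 when JQ1 was added, a log2 fold change of 0.72. Only 12 of the 37 mitosis genes and 10 of the 14 histone genes reached 100 in either of the libraries with lapatinib. None of these differences between comparisons was tested.

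**Figure D4:**
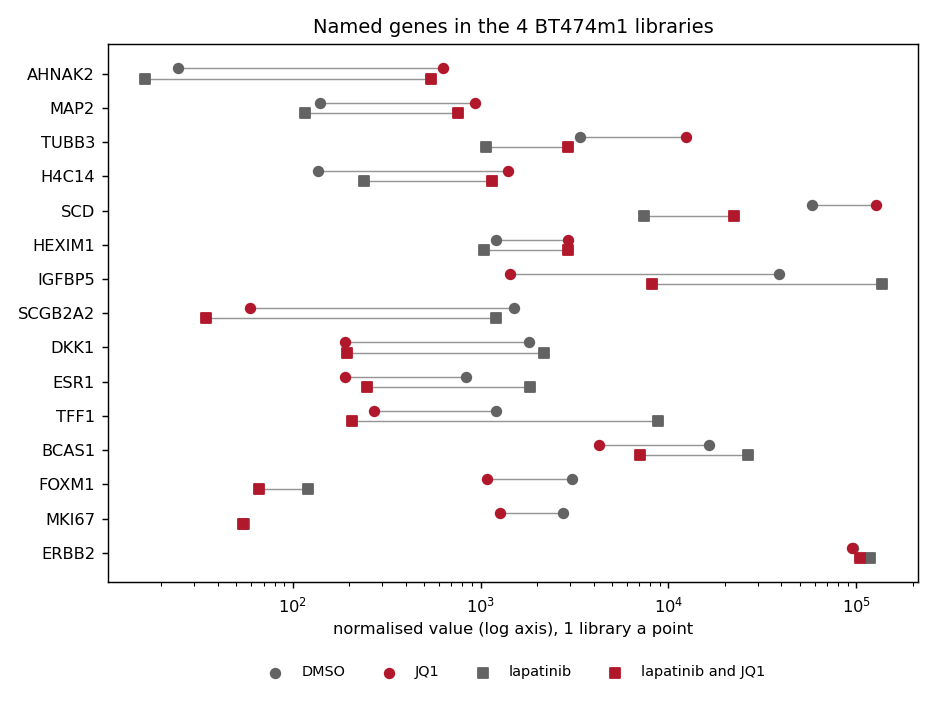
Normalised values (log axis) of 15 named genes in the 4 BT474m1 libraries, 1 library a point, with circles for DMSO and JQ1 and squares for lapatinib and lapatinib with JQ1. Red marks hold JQ1, and a line joins each pair that differs by JQ1. The red mark lies to the left of its partner for IGFBP5, SCGB2A2, DKK1, ESR1, TFF1 and BCAS1 in both pairs, and the squares of FOXM1 and MKI67 lie far below their circles.

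Changes of at least 2-fold in opposite directions were rare. ADCY1, an adenylate cyclase, was the gene raised by JQ1 alone and lowered by its addition, from 158 to 387 (log2 fold change 1.29, interval 1.11 to 1.48) and from 1184 with lapatinib to 226 with both drugs (log2 fold change -2.39). CPED1 and FAM72A were lowered by JQ1 alone and higher with its addition. CPED1 went from 7.83 to 18.1 in the second comparison, and FAM72A was listed at 0 with lapatinib and at 5.27 with both drugs.

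In SKBR-3, a HER2-positive breast line known as negative for the estrogen receptor, JQ1 against DMSO raised 272 (2.55%) and lowered 730 (6.83%) of the same 10681 genes. Raised in both lines were 101 genes, 29.5% of those raised in BT474m1 and 37.1% of those raised in SKBR-3, and lowered in both were 363, 47.0% and 49.7%. The Pearson r across genes was 0.59 and the Spearman rho 0.58 (n = 10681 genes), with the same limits. Over the genes raised in BT474m1 the median log2 fold change was 1.29 in BT474m1 and 0.64 in SKBR-3, and over those lowered it was -1.43 and -0.91. In all 3 comparisons 58 genes were raised and 291 lowered. The genes were chosen by their values in BT474m1, and 1259 of them were under 100 in both SKBR-3 libraries, among them 28 of the genes raised and 140 of those lowered in both lines.

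AHNAK2 was at 1.55 on the log2 scale in SKBR-3, MAP2 at 2.77 and H4C14 at 4.25. AHNAK2 was under 100 there, with 14.3 and 43.8 (interval 0.88 to 2.41). IGFBP5 was at -4.88 there, SCGB2A2 at -4.20 (interval -7.09 to -3.17, from 3 reads with JQ1) and MAB21L4 at -4.09 beside -4.28 in BT474m1. These genes lay on 1 side in both lines. MYC did not pass 2-fold in SKBR-3, with 2143 and 1879 (log2 fold change -0.19, interval -0.26 to -0.12). FYN was under 100 there, with 36.5 and 70.9 (log2 fold change 0.94, interval 0.47 to 1.47), and PIP was near the floor, with 7.87 and 3.87. ESR1 was hardly present there, at 4.29 with DMSO and 1.93 with JQ1. The replication-dependent histones had 13 of 14 raised in SKBR-3, with a median of 3.28, and 13 of the 14 reached 100 there. Of the 12 breast secretory products only 4 reached 100 in SKBR-3, of which MUC1 was lowered and S100P raised, so that the list's median of -1.62 there rests on genes of few reads. NF-kB genes had none of 9 past 2-fold there and a median of 0.10. Whether the lines differ was not tested.

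**Figure D5:**
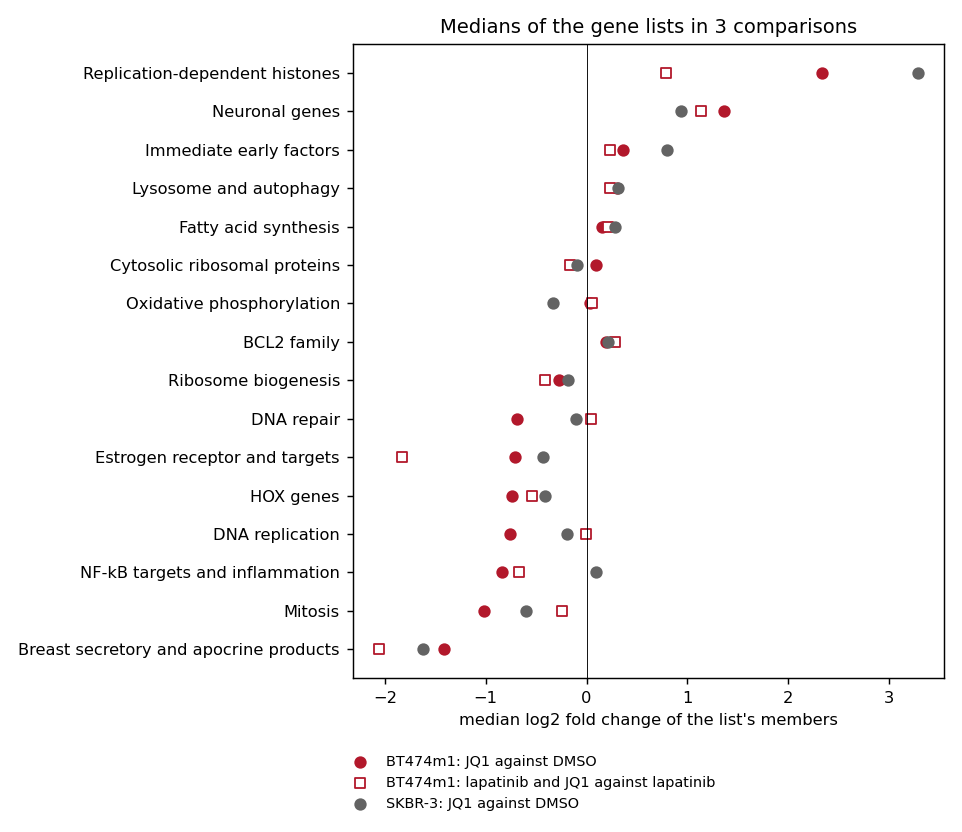
Median log2 fold change (horizontal) of the members of 16 gene lists in 3 comparisons, each of 1 library a group: filled red circles for JQ1 against DMSO in BT474m1, open squares for lapatinib and JQ1 against lapatinib in BT474m1, and grey circles for JQ1 against DMSO in SKBR-3. Histones lie right of 0 in each comparison, only 4 of 12 secretory products and 4 of 9 neuronal genes reached 100 in SKBR-3, and the open square of the estrogen receptor list, at -1.83, lies left of its circles at -0.71 and, for SKBR-3, where 14 of the 24 genes reached 100, at -0.43. Over those 14 genes alone the SKBR-3 median was -0.03, and none was raised or lowered.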

How the data were processed

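Poly(A) RNA was sequenced by the authors. The labels name a KAPA stranded kit in one field and an Illumina TruSeq kit in another. Whether counting used strand is not given in the sources used here. Each deposited value is a normalised signal for 1 gene, not per length. The deposited tables are named as RSEM results, and genes above 0 have an upper quartile near 1000 in each library. The submitters' processing notes name hg19, Picard 1.88, SAMtools 1.2, RSEM, R 3.2.2 and DESeq2 1.12.3, whereas the methods text names hg38, STAR and Salmon. Which of these made the tables could not be settled, so no gene coordinates are given except for RefSeq promoters. Groups came from the labels, and 0 columns were left unmapped.

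Fold changes are differences on the log2(value + 1) scale, computed where either library reached 100, and a gene was called at 2-fold. The software was scipy 1.17.1, pandas 2.3.3 and numpy 2.4.6 under Python 3.11.15, with matplotlib 3.10.9 for plots. The value of 1 read was recovered as the step between values. With it 84.1% (DMSO) and 83.5% (JQ1) of the values above 0 were whole reads within 0.02, and 95% exact Clopper-Pearson intervals were computed from reads rounded to whole numbers. Molecular identifiers are not mentioned in the sources used here, so reads can be PCR copies of 1 molecule, and intervals hold counting error alone. The calculation was tested on simulated data.

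The comparison's genes and 59 gene lists were chosen with earlier results of these data known. All but 2 list members were found. Named genes were HEXIM1, SERPINI1, MYC, ESR1, PGR, ERBB2, ERBB3, FOXA1, GATA3, CCND1, BCL2, MKI67 and the BET genes, the 20 raised and the 20 lowered most, 4 members per list that changed most (all for lists of up to 12), the 12 lowered genes with the highest DMSO value and the 12 raised with the highest JQ1 value, and 5 each way that were shared with or opposite to the other comparisons. Other genes named, such as CDK9, CDK1, CTSD, FASN and further members of the histone list, were chosen after their values were seen. Some named genes are not reported here. RefSeq entries (GRCh38.p14) were matched by Entrez identifier for 10653 genes (99.7%). A comparison of promoter letters between raised and lowered genes was void, since only 78.9% and 79.4% of them had a promoter sequence.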

Additional observations from a re-analysis of the deposited data

Results flagged for a closer look

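A few genes named here moved at least 2-fold in opposite directions with JQ1 in BT474m1 and in SKBR-3, among those with a value of 100 or more in either SKBR-3 library and none at 0. BHLHE40, a clock-linked repressor, had a log2 fold change of -1.83 in BT474m1 (from 259 to 72.0) and 1.11 in SKBR-3 (from 282 to 609.5). ANXA1, annexin A1, had -1.36 in BT474m1 (from 131 to 50.2) and 1.26 in SKBR-3 (from 94.5 to 227). PKIA, an inhibitor of protein kinase A, had 1.23 in BT474m1 (from 571 to 1342.0) and -2.69 in SKBR-3 (from 377 to 57.3). SNX10, a sorting nexin, had 1.20 in BT474m1 (from 257 to 593) and -1.47 in SKBR-3 (from 194 to 69.6). POLR2J2, 1 of several near copies of an RNA polymerase II subunit gene, had 1.68 in BT474m1 and -2.24 in SKBR-3, and none of its 8 values was a whole number of reads. When JQ1 was added to lapatinib in BT474m1, SNX10 went from 887 to 522 (log2 fold change -0.76) and POLR2J2 was at -0.14. BHLHE40, ANXA1 and PKIA kept their sign there, at -2.40, -1.12 and 0.51. Over all genes compared, 9 of those raised and 6 of those lowered in BT474m1 passed 2-fold the other way in SKBR-3. With 1 library a group, the difference between the lines was not tested for any of these genes.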

How the results depend on the processing

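No paired analysis was possible because each group held 1 library, and no replicate could be left out. The counts of genes raised at least 2-fold by JQ1 and of genes lowered at least 2-fold by JQ1 depended most on the filter. With a value of 10 or more in either library 591 genes were raised and 1459 lowered (of 13146), and with no filter 889 were raised and 2074 lowered (of 20531). These filters add genes of low values to those compared. A pseudocount of 10 gave 310 and 731, scaling by the median of ratios 364 and 738, scaling to equal totals 315 and 810, and a mean of 100 or more 298 and 659. Genes of whole reads in the 8 libraries, an alternative chosen after seeing the data, gave 268 and 635 of 8195. Every raised and lowered gene had an interval beyond no change. With 100 or more in the higher library, a 2-fold difference spans enough reads to fix this beforehand, so it lends the calls no support. Scaling moved all log2 fold changes by 0.03 (median of ratios) or -0.03 (equal totals). Of 58 list medians 14 changed sign under some alternative, 1 of them the interferon-stimulated genes and the others within 0.40 of 0, and of 366 named genes ERBB2 and MAFK did, both within 0.02 of 0. With a pseudocount of 10, 32 named genes left their counting interval, with scaling by the median of ratios 12 and to equal totals 11. List medians moved by more than a typical member's counting error in 19 lists with no filter, 16 with whole reads and 12 with a value of 10 or more. No gene or list past 2-fold changed direction.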
